A study of Caenorhabditis nigoni and Caenorhabditis briggsae with 14 samples.

Results

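The repeat families examined here are those whose identifiers begin with c_sp9, 559 of the 920 families in the repeat count tables of 12 libraries of male worms. They were chosen by that prefix alone, and the other 361 families carry the prefix cb. C. sp. 9 is the former name of the nematode Caenorhabditis nigoni, and the prefix is read here as that species. The rest of each identifier has the form that de novo repeat finders give, with a search round (rnd) and a family number. The files hold no class, sequence, length or position for any family, so which of them are transposons is not known here, and levels are not compared between families as amounts per element.

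Repeat families are sets of similar sequences scattered over a genome, many of them copies of transposable elements. In Caenorhabditis, small RNAs bound by Argonaute proteins keep many such elements silent, above all in the germline. Repeat content differs between related species, because elements are gained, lost and copied independently in each lineage.

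The study sequenced messenger RNA of sterile hybrid males and of fertile males of the parental species, in 4 strains with 3 libraries each. JU1421 is wild-type C. nigoni and fertile, and AF16 is wild-type C. briggsae, its close relative, and also fertile. ZZY10307 and ZZY10330 are sterile males with a genome that is mostly C. nigoni. In ZZY10307 the X chromosome is from C. briggsae between 4.5 and 12.2 Mb, and in ZZY10330 from 16.4 Mb to its end. Sterile males were sons of JU1421 fathers and mothers with the introgression, recognised by the fluorescent marker cbr-myo-2::GFP. Each library was made from 300 young adult males, taken whole. Fewer cells of a type and less RNA per cell therefore cannot be told apart. Each introgression is represented by a single strain. Whether replicates are separate cultures is not in the labels, and the p-values speak of the spread among these libraries only, which may be technical. The files give no gene names, so the tissue makeup of the males was not checked against marker genes.

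Gene counts ranged from 2372653 to 3785106 per library and repeat counts from 112876 to 536392, of which 18543 to 44366 fell in c_sp9 families. Levels are given as CPM, counts per 1000000 gene counts of the same library, with the gene count total scaled by its TMM factor. Against gene count totals alone, the median log2 difference of all 13289 genes tested was 0.48 for ZZY10307 against JU1421 and 0.20 for ZZY10330 against JU1421, and TMM brought these to 0.09 and -0.03. Results described here whose call or split depends on this choice are given both ways. A family is called higher or lower at an adjusted p below 0.05 in the quasi-likelihood test of edgeR, adjusted over all 696 families with at least 10 counts in the 12 libraries together.

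Of the 559 c_sp9 families, 505 had a count in some library and 54 had none. Of the 505, 85 had fewer than 10 counts in all and 420 were tested, of which 54 had at least 1000 counts, 133 had at least 100 but fewer than 1000, and 233 had fewer than 100. The median tested family had 76.5 counts over the 12 libraries, so most of the list was seen thinly, and 74 families were counted in every library. The number of c_sp9 families with a count was 318, 272 and 299 in the JU1421 libraries and 203, 237 and 184 in those of AF16. It was 365, 326 and 323 in ZZY10307 and 324, 251 and 242 in ZZY10330. The AF16 libraries thus had the fewest, below every library of the other strains, and the ZZY10307 libraries lay above every JU1421 library. For the cb families the order of the parents was opposite, with 200 families counted in JU1421 and 277 in AF16 over the 3 libraries of each, against 391 and 307 of the c_sp9 families.

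A few families carried most of the signal. The 3 most abundant c_sp9 families held 38.3% of the summed CPM in JU1421 and 50.1% in AF16, and 34.4% in each sterile strain. The 12 most abundant held 66.2% in JU1421, 81.5% in AF16, and 56.7% and 59.3% in the ZZY10307 and ZZY10330 males. Replicates varied widely within a strain. The coefficient of variation was taken for families whose counts in all strains together reached 100. Its median was 40.2% in JU1421 (186 families) and 71.1% in AF16 (149), against 31.5% in ZZY10307 (187) and 52.2% in ZZY10330 (185). Such a family can have few counts in AF16, where counting error adds to the spread. These medians therefore do not rank the strains by replicate spread. Chi-square over its degrees of freedom between replicates was 7.73 to 17.1 in AF16 and 7.56 to 16.7 in JU1421. It was 8.53 to 22.3 in ZZY10307 and 16.6 to 26.5 in ZZY10330.

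Summed over all c_sp9 families, the level was highest in fertile C. nigoni and lower in both sterile strains and in C. briggsae. It was 16598, 17801 and 14515 CPM in the JU1421 libraries, with a mean of 16304 ± 1663 (SD, n = 3). In ZZY10307 it was 13772, 10448 and 11261 CPM (11827 ± 1733), in ZZY10330 it was 10911, 10315 and 13286 CPM (11504 ± 1572), and in AF16 it was 9304, 10488 and 7290 CPM (9027 ± 1617). Every JU1421 library lay above every library of the other 3 strains. Relative to JU1421 the mean was 0.725 in ZZY10307, 0.706 in ZZY10330 and 0.554 in AF16. Each of these differences had p = 0.1 in an exact two-sided permutation test, the smallest p that 3 against 3 libraries can give, and 0.133 after adjustment over the 8 tests of sums and shares. The 2 sterile strains overlapped, with a ratio of 0.973 and an exact p of 0.6. Summed over the cb families, the mean relative to JU1421 was 0.172 in ZZY10307, 0.424 in ZZY10330 and 0.586 in AF16. Without the most abundant cb family, cb_rnd-5_family-688, it was 0.566, 1.06 and 1.03 in the same order. A sum below that of JU1421 was thus seen under both prefixes when all families were taken.

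The separation of ZZY10307 from JU1421 in the sum depends on the scaling, and the sign of the difference between the sterile strains depends on 1 family. Scaled by gene count totals without TMM factors, ZZY10307 had 13674 ± 1628 and JU1421 14338 ± 1034, which overlap (exact permutation p = 0.7), while ZZY10330 (11896 ± 821) and AF16 (8499 ± 1396) stayed below every JU1421 library. The most abundant member, c_sp9_rnd-4_family-199, had 80378 counts in all and varied within strains. It stood at 2653, 3673 and 2031 CPM in JU1421, 2898, 3346 and 1333 in AF16, 3689, 1294 and 2149 in ZZY10307 and 966, 1053 and 2602 in ZZY10330. Its libraries overlapped between all strains, and it was not called in any comparison. Without it the sums were 13519 ± 901 CPM in JU1421 and 6502 ± 598 in AF16, 9450 ± 549 in ZZY10307 and 9964 ± 711 in ZZY10330, and the difference between the sterile strains changed sign (ZZY10330 higher by 514 CPM, exact permutation p = 0.4). Other abundant families also weigh on the sum. c_sp9_rnd-4_family-2009 had a mean of 1449 CPM in JU1421, 72.1 in ZZY10307 and 99.2 in ZZY10330. c_sp9_rnd-5_family-3359 had 2009 CPM against 464 and 865. The median log2 difference from JU1421 over the tested c_sp9 families was 0.15 in ZZY10307 and 0.06 in ZZY10330. The lower sums of the sterile strains are therefore not a fall of most families.

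As a share of all repeat counts, c_sp9 families made up 8.71% ± 0.782 in JU1421 and 8.18% ± 0.992 in AF16, against 28.6% ± 0.887 in ZZY10307 and 14.1% ± 2.52 in ZZY10330 (SD, n = 3). The exact permutation p was 0.1 for each sterile strain against JU1421 and between the sterile strains, and 0.6 for AF16 against JU1421. These shares move with 1 family of the other prefix. cb_rnd-5_family-688 stood at a mean of 148866 CPM in JU1421 and 76922 in AF16, with 16433 in ZZY10307 and 48311 in ZZY10330, each mean above that of all c_sp9 families together in the same strain. Without it the c_sp9 share was 41.3% ± 1.45 in JU1421 and 27.3% ± 2.46 in AF16, with 47.3% ± 0.538 in ZZY10307 and 32.2% ± 2.43 in ZZY10330. ZZY10330 then lay below JU1421 rather than above it, and the difference of ZZY10307 from JU1421 fell from 19.9 to 6.04 percentage points.

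**Figure D1:**
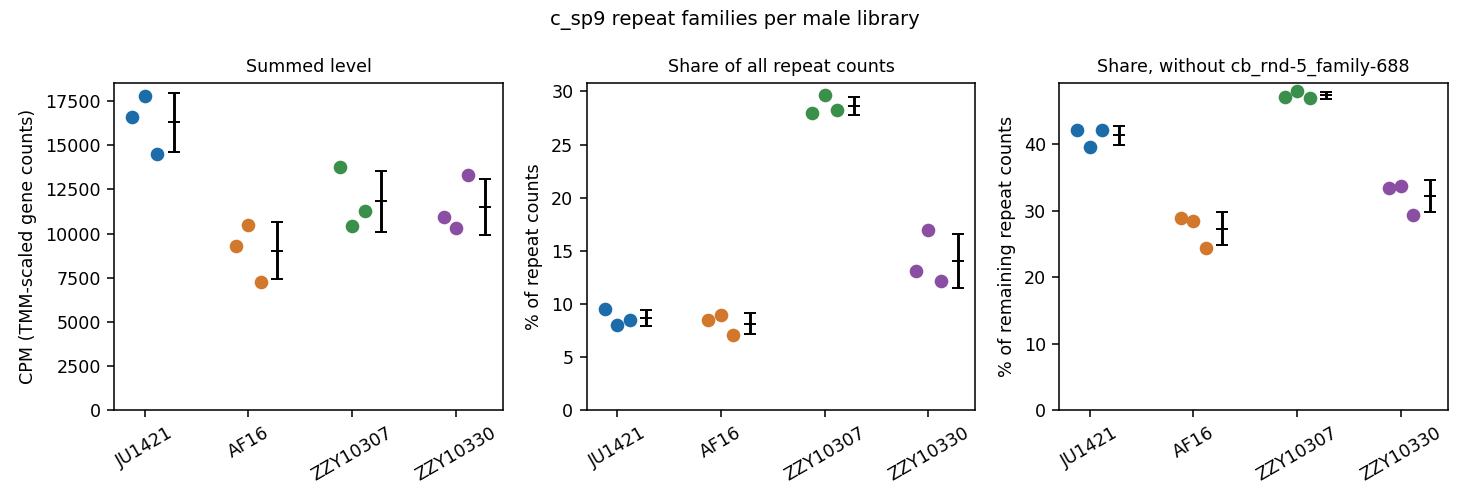
Summed level of the c_sp9 families in CPM (left), their share of all repeat counts in percent (middle) and that share without cb_rnd-5_family-688 (right), for each of the 12 male libraries (dots) with the strain mean and SD (bars). JU1421 is highest in the left panel, and the order of JU1421 (8.71%) and ZZY10330 (14.1%) in the middle panel turns round in the right one (41.3% and 32.2%).

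The comparison of the fertile parents asks how far these families differ between the species. In AF16, 85 c_sp9 families were lower than in JU1421 and 9 were higher, beside 13.5% lower, 7.18% higher and 20.7% in either direction among all 696 families tested. Of the 420 c_sp9 families, 20.2% were lower and 2.14% higher, while of the 276 cb families tested 3.26% were lower and 14.9% higher. The median log2 difference was -1.26 over the c_sp9 families, with quartiles at -4.16 and 0.25, beside -0.00 over all families and 1.56 over the cb families. With gene count totals alone the c_sp9 median was -1.18. These are counts and medians of the list, with no test of the list as a whole. The sources used here do not say how reads of each species were mapped, and a lower level of RNA and a lower chance that C. briggsae reads are assigned to these families cannot be told apart.

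The 85 lower families had a median of 21.4 CPM in JU1421 and 0.390 CPM in AF16, and 41 of them had no AF16 count at all. The clearest case among abundant families was c_sp9_rnd-5_family-192. It stood at 654, 557 and 448 CPM in JU1421, while 2 of the AF16 libraries had no count and replicate 3 had 1 (0.393 CPM). The groups lay far apart (edgeR adjusted p = 5.07e-104). With counts and scaled gene totals pooled over each strain, the ratio was 4893, with 878 and 193298 as its 95% bounds for counting error only. The ratio of the mean CPM values was 4219. The sterile strains kept a level close to that of JU1421, at 440.2 ± 32.6 CPM in ZZY10307 and 471 ± 21.7 in ZZY10330.

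Other families were seen in JU1421 and in no AF16 library. c_sp9_rnd-5_family-1224 stood at 216, 106 and 182 CPM in JU1421 and at 0 in AF16, at least 497-fold lower against the floor of 3 counts over the AF16 group (edgeR adjusted p = 3.82e-60). It was counted in all 6 sterile libraries, from 88.5 to 184 CPM. c_sp9_rnd-5_family-1393 was even across JU1421, at 66.0, 68.6 and 67.2 CPM, and at least 199-fold lower in AF16. c_sp9_rnd-5_family-10748 (69.8 ± 5.03 CPM in JU1421), c_sp9_rnd-5_family-12379 (63.5 ± 12.5) and c_sp9_rnd-4_family-937 (35.5 ± 16) also had no AF16 count, which puts them at least 206-fold, 187-fold and 104-fold lower. Each of these 5 passed the test in all 12 alternative settings.

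In all, 64 of the 246 c_sp9 families with at least 10 JU1421 counts had no count in AF16 (26.0%), beside 13 of the 106 cb families chosen the same way (12.3%). Of these 64, 60 had a count in ZZY10307 and 59 in ZZY10330, beside all but 7 and all but 10 of the 246 families as a whole. In the other direction, 18 of the 181 c_sp9 families with at least 10 AF16 counts had none in JU1421, beside 66 of the 201 cb families. Of these 18, 10 had a count in ZZY10307, 8 in ZZY10330 and 7 in both. The 66 cb families were not followed into the sterile strains, so no background stands beside these numbers. A count of 0 over the 3 libraries of a strain allows a level of up to 0.409 CPM in JU1421 and 0.338 in AF16, and of 0.304 in ZZY10307 and 0.297 in ZZY10330, for counting error only.

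Several lower families still had counts in AF16. c_sp9_rnd-5_family-7466 was at 307 ± 39.6 CPM in JU1421 and 0.487 ± 0.844 in AF16, where all 5 counts came from replicate 2, so that none is left without it (edgeR adjusted p = 2.05e-68). c_sp9_rnd-5_family-2206 was at 406 ± 47.9 CPM in JU1421 against 5.16, 0.292 and 0 in AF16 (log2 -7.77, edgeR adjusted p = 1.62e-05), and at log2 -10.94 without AF16 replicate 1. c_sp9_rnd-5_family-3557 was at 395 ± 79.2 CPM against 14 ± 5.63, a fold of 28.3 lower in AF16. The most abundant family among the lower ones described here was c_sp9_rnd-5_family-3359, at 1923, 2394 and 1709.7 CPM in JU1421 and 242, 309.9 and 222 in AF16 (log2 -2.96 ± 0.28 SE, edgeR adjusted p = 1.14e-23). So the families ranged from those with no count in C. briggsae to those present there at a lower level.

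The 9 families higher in AF16 had a median of 5.72 CPM in JU1421 and 28.7 in AF16, and 3 of them had no JU1421 count. c_sp9_rnd-3_family-613 stood at 27.5, 14 and 8.26 CPM in AF16 and at 0 in JU1421, at least 41.1-fold higher against the floor of 3 counts over the JU1421 group (edgeR adjusted p = 7.17e-05). It also had counts in all 3 ZZY10307 libraries, at 0.931, 6.28 and 3.89 CPM, and in 2 of the ZZY10330 libraries. c_sp9_rnd-4_family-37 stood at 37.2, 24.6 and 24.4 CPM in AF16 and 0.830, 1.24 and 0.800 in JU1421, about 30-fold higher (log2 4.85 ± 1.15 SE, edgeR adjusted p = 0.000241). c_sp9_rnd-4_family-1971 was at 46.7 ± 12.1 CPM against 11.4 ± 4.63 in JU1421, 4.08-fold higher. The groups did not overlap for any of these 3, and all 3 calls held in the 12 alternative settings.

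The calls of the other 6 families higher in AF16 were lost when certain single libraries were left out, with the direction the same each time. c_sp9_rnd-5_family-9330 was at 354, 408 and 307 CPM in AF16 against 138, 218 and 157 in JU1421 (2.09-fold, edgeR adjusted p = 0.00947), with adjusted p = 0.0798 without JU1421 replicate 1, 0.0518 without JU1421 replicate 3 and 0.0509 without AF16 replicate 2. c_sp9_rnd-5_family-5639 was at 571, 705 and 573 CPM against 254, 424 and 279 (1.93-fold, edgeR adjusted p = 0.00775), with 0.0820 without JU1421 replicate 1 and 0.0518 without JU1421 replicate 3. Neither overlapped JU1421, and with single libraries left out the log2 difference ranged from 0.92 to 1.27 for the first and from 0.81 to 1.21 for the second. c_sp9_rnd-4_family-1626 was at 53.1 ± 7.79 CPM against 15.7 ± 5.20, and its adjusted p was 0.0616 without JU1421 replicate 3. c_sp9_rnd-5_family-2842 was at 24.0 ± 4.41 CPM against 5.72 ± 0.958, and lost its call without any of the JU1421 libraries or AF16 replicate 1 (edgeR adjusted p = 0.0555 to 0.0821). c_sp9_rnd-5_family-9460 and c_sp9_rnd-5_family-3346, with 50 and 32 AF16 counts and none in JU1421, were called on few counts. The first was lost without any single library other than AF16 replicate 3 (edgeR adjusted p = 0.0608 to 0.138) and the second without any single library (0.0505 to 0.130), at fitted log2 differences of 5.93 to 6.87 around 6.50. The first was also lost in DESeq2 (0.0771) and in 1 table with the genes (0.0567), and the second with a minimum of 1 count (0.0511) and in 1 table with the genes (0.0578). The number of higher families went from 9 to 3 without JU1421 replicate 3.

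**Figure D2:**
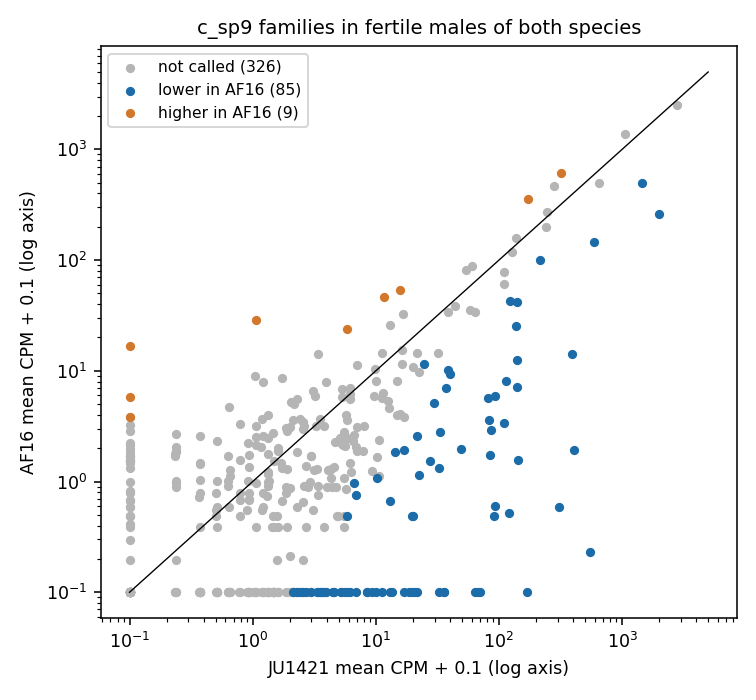
Mean level of each of the 420 tested c_sp9 families in JU1421 (horizontal) and AF16 (vertical), in CPM + 0.1 on log axes, with the families called in the edgeR test coloured. Of the 85 lower families, 41 lie on the bottom line, where AF16 has no count, and the 9 higher ones lie above the diagonal.

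By search round, the lower families in AF16 comprised 3 of the 15 tested families of round 3, 16 of 87 in round 4 and 66 of 314 in round 5. In either direction, 26.7%, 21.8% and 22.6% of the families of these rounds were called. The share was 22.4% over all c_sp9 families tested and 20.7% over all 696 families. Shares by round were not taken over all families. The median log2 difference was -1.45, -1.26 and -1.28 in these rounds and 0.43 over the 4 tested families of round 2. By abundance, 34 of 54 c_sp9 families with at least 1000 counts were lower in AF16, 46 of the next 133, down to 100 counts, and 5 of 233 with fewer. Of the cb families in the same classes, 5 of 15, 2 of 90 and 2 of 171 were lower, and 5, 27 and 9 were higher. The c_sp9 families with few counts therefore add little to the calls, and depth limits what can be seen among them. The classes were set by counts summed over the libraries of all strains, most of them not AF16. A family scarce in AF16 could reach a high class only through the other strains. The shares by class thus partly follow from how the classes were made, and depth alone cannot be read from them.

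Males of ZZY10307 are sterile, and C. briggsae sequence replaces the middle of their X chromosome. The comparison with JU1421 asks which families differ in this strain. In ZZY10307, 12 c_sp9 families were lower and 4 higher, together 3.81% of the 420 tested, beside 2.59% lower, 1.01% higher and 3.59% in either direction among all families. The share of c_sp9 families called is thus close to that of all families. The median log2 difference was 0.15 over the c_sp9 families, beside 0.11 over all families and 0.09 over genes, with quartiles at -0.69 and 1.22. Scaled by gene count totals alone, 8 families were lower and 10 higher and the c_sp9 median was 0.53. The split between the directions therefore depends on the scaling.

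Of the 12 lower families, 11 had at least 1000 counts, out of 54 c_sp9 families of that abundance. Of the 6 lower cb families, 4 had at least 1000 counts, out of 15 cb families of that abundance. Among the lower c_sp9 families, the one with the lowest adjusted p was c_sp9_rnd-4_family-2009. It stood at 1296, 1602 and 1450.5 CPM in JU1421, 88.5, 61.8 and 66.1 in ZZY10307, 113, 70.5 and 114 in ZZY10330, and 474, 497 and 505 in AF16. Both sterile strains lay below both parents in every library, and the parents did not overlap each other. The family was 20.1-fold lower in ZZY10307 than in JU1421 (log2 -4.33 ± 0.32 SE, edgeR adjusted p = 2.46e-39) and 14.6-fold lower in ZZY10330 (log2 -3.87 ± 0.31 SE, edgeR adjusted p = 9.11e-33). The sterile strains share the JU1421 libraries as controls, so these are not separate evidence of a low level.

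c_sp9_rnd-5_family-9330 was also lower in both sterile strains than in either parent. Against 138, 218 and 157 CPM in JU1421 and 354, 408 and 307 in AF16, it stood at 10.9, 4.97 and 6.71 CPM in ZZY10307 and 35.2, 20.4 and 20.5 in ZZY10330. It was 22.7-fold lower in ZZY10307 (log2 -4.50 ± 0.39 SE, edgeR adjusted p = 1.61e-28) and 6.73-fold lower in ZZY10330 (log2 -2.75 ± 0.35 SE, edgeR adjusted p = 1.97e-12). The sterile strains did not overlap, and ZZY10330 was 3.38-fold higher than ZZY10307 (edgeR adjusted p = 8.29e-05).

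c_sp9_rnd-5_family-5639 was low in ZZY10307 and not in ZZY10330. It stood at 254, 424 and 279 CPM in JU1421, 91.6, 61.0 and 88.0 in ZZY10307 and 373, 260.5 and 309.7 in ZZY10330. Every ZZY10307 library lay below every library of the other strains, while ZZY10330 overlapped JU1421. The family was 3.98-fold lower in ZZY10307 than in JU1421 (log2 -1.99 ± 0.30 SE, edgeR adjusted p = 3.3e-09), against log2 -0.02 ± 0.29 SE in ZZY10330. The direct comparison put ZZY10330 3.92-fold higher than ZZY10307 (log2 1.97 ± 0.30 SE, edgeR adjusted p = 7.6e-09).

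Among the other abundant families, c_sp9_rnd-5_family-3359 was at 494, 422 and 476 CPM in ZZY10307 and 876, 619 and 1101 in ZZY10330, below every JU1421 library. It was 4.33-fold lower in ZZY10307 and 2.32-fold lower in ZZY10330 (edgeR adjusted p = 1.73e-12 and 0.000236). c_sp9_rnd-5_family-12693 was at 588 ± 96.6 CPM in JU1421, 150.4 ± 27.8 in ZZY10307, 227 ± 67.6 in ZZY10330 and 144 ± 4.42 in AF16. Each of these 2 families was below JU1421 in the sterile strains and in AF16. c_sp9_rnd-5_family-2826 was at 279.7 ± 44.4 CPM in JU1421, 89.5 ± 28.7 in ZZY10307 and 107 ± 38.8 in ZZY10330, 3.13-fold and 2.6-fold lower (edgeR adjusted p = 6.09e-06 and 0.000258), while AF16 stood at 462 ± 62.8. c_sp9_rnd-5_family-3557 was at 134 ± 6.54 CPM in ZZY10307 and 176 ± 41.2 in ZZY10330 against 395 ± 79.2 in JU1421 (edgeR adjusted p = 6.1e-05 and 0.00889), with adjusted p = 0.0869 for ZZY10330 without JU1421 replicate 1. Except for that value, these 4 families kept their calls against JU1421 in both sterile strains under all 12 alternative settings.

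The remaining 5 lower families in ZZY10307 were less stable. c_sp9_rnd-5_family-1487 was at 82.3 ± 15.4 CPM in JU1421 and 18.8 ± 8.98 in ZZY10307, and was lost without JU1421 replicate 3 (edgeR adjusted p = 0.0550) or ZZY10307 replicate 2 (0.121). c_sp9_rnd-5_family-2067, at 92.2 ± 10.7 against 25.3 ± 5.38 CPM, was lost without JU1421 replicate 3 (0.0550), ZZY10307 replicate 2 (0.106) or replicate 3 (0.0542), and with gene count totals alone (0.0656). c_sp9_rnd-4_family-419, at 64.0 ± 35.1 against 16.5 ± 3.14 CPM, was lost without JU1421 replicate 2 (0.208), which held the highest value, without ZZY10307 replicate 1 (0.0771) or 3 (0.0530), and with gene count totals alone (0.0656). Their groups did not overlap, and the direction was the same with each library left out. c_sp9_rnd-5_family-1461, at 109 ± 4.71 against 37.9 ± 3.05 CPM, lost its call when any one of the 6 libraries was left out (0.0870 to 0.263) and with gene count totals alone (0.209). c_sp9_rnd-5_family-1528 had 4 counts in ZZY10307, all in 1 library, against 20, 24 and 27 in JU1421, and its adjusted p of 0.0492 rose to between 0.0829 and 0.337 without any library other than ZZY10307 replicate 1. It was also lost with gene count totals alone (0.0913), with a minimum of 1 count (0.0587) and with a minimum of 50 counts (0.0626), and without ZZY10307 replicate 1 no ZZY10307 count remains.

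The 4 families higher in ZZY10307 began at low or moderate levels in JU1421. c_sp9_rnd-5_family-2147 stood at 25.3, 18.6 and 29.6 CPM in JU1421, 12, 16.4 and 5.50 in AF16, 86.0, 126 and 109.9 in ZZY10307 and 139, 137 and 82.9 in ZZY10330. Every sterile library lay above every parental one. The family was 4.38-fold higher in ZZY10307 (log2 2.13 ± 0.41 SE, edgeR adjusted p = 1.38e-05) and 4.88-fold higher in ZZY10330 (log2 2.28 ± 0.41 SE, edgeR adjusted p = 1.99e-06). c_sp9_rnd-5_family-6939 was at 144, 102 and 171 CPM in JU1421, 294, 474 and 379 in ZZY10307 and 211, 257 and 184 in ZZY10330. It was 2.75-fold higher in ZZY10307 (edgeR adjusted p = 0.000181), and ZZY10330 differed from JU1421 by log2 0.65 ± 0.31 SE (edgeR adjusted p = 0.283).

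c_sp9_rnd-5_family-1398 was at 3.32, 14 and 3.20 CPM in JU1421 and 86.6, 35.3 and 53.7 in ZZY10307, 8.54-fold higher (log2 3.09, edgeR adjusted p = 0.000259). Without ZZY10307 replicate 1 the adjusted p was 0.0634, and without JU1421 replicate 2, the highest of that strain, log2 rose to 4.16. The ZZY10330 libraries, at 19.8, 17.1 and 8.29 CPM, overlapped JU1421. c_sp9_rnd-3_family-613, absent from JU1421 and counted in AF16, was at least 9.41-fold higher in ZZY10307 against the floor of 3 counts over the JU1421 group (edgeR adjusted p = 0.0235). It rested on 38 counts, and the call was lost without any single library other than ZZY10307 replicate 1 (edgeR adjusted p = 0.0524 to 0.124).

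ZZY10330 males are sterile too, with C. briggsae sequence at the end of the X chromosome. In ZZY10330, 15 c_sp9 families were lower than in JU1421 and 4 higher, together 4.52% of the 420 tested, beside 3.45% lower, 2.01% higher and 5.46% in either direction among all families. The median log2 difference was 0.06 over the c_sp9 families, with quartiles at -1.0 and 1.21, beside 0.01 over all families and -0.03 over genes. Scaled by gene count totals alone, 12 families were lower and 6 higher and the c_sp9 median was 0.27. Here too the share of c_sp9 families called was close to that of all families. All 19 c_sp9 families called had at least 100 counts, and 14 had at least 1000. None of the 19 cb families called had fewer than 100 counts. Of the 15 cb families with at least 1000 counts, 4 were higher and 5 lower. The number of higher c_sp9 families was 2 without JU1421 replicate 3 and 2 without ZZY10330 replicate 2.

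Of the 15 lower families, 2 had no count in any ZZY10330 library. c_sp9_rnd-5_family-2714 stood at 14.9, 31.8 and 17.6 CPM in JU1421, 11.2, 7.59 and 5.65 in ZZY10307, 0.688, 3.22 and 3.54 in AF16 and 0 in all 3 ZZY10330 libraries. It was at least 72.0-fold lower than in JU1421 and at least 27.6-fold lower than in ZZY10307, against the floor of 3 counts over the ZZY10330 group (edgeR adjusted p = 9.52e-07 and 0.000105). c_sp9_rnd-5_family-2037 was at 7.88, 12.4 and 11.2 CPM in JU1421 and 2.17, 6.54 and 3.89 in ZZY10307, and likewise at 0 in ZZY10330. It was at least 35.3-fold lower than in JU1421 (edgeR adjusted p = 0.00392). Both were families of low level, with AF16 means of 2.48 and 1.02 CPM.

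c_sp9_rnd-5_family-2851 was low in ZZY10330 and not in ZZY10307. It stood at 209, 331 and 188 CPM in JU1421, 186, 272 and 138 in AF16, 489.5, 118 and 271 in ZZY10307 and 58.9, 50 and 81.6 in ZZY10330. Every ZZY10330 library lay below every other library, while the other 3 strains overlapped. It was 3.83-fold lower than in JU1421 (log2 -1.94 ± 0.32 SE, edgeR adjusted p = 1.83e-07) and 4.61-fold lower than in ZZY10307 (log2 -2.21 ± 0.32 SE, edgeR adjusted p = 2.81e-09). c_sp9_rnd-5_family-1461, described above for ZZY10307, was at 31.4, 21.2 and 13.1 CPM in ZZY10330 against 113, 109.9 and 104 in JU1421, 4.99-fold lower (log2 -2.31 ± 0.48 SE, edgeR adjusted p = 8.47e-05). That call held in all 12 alternative settings.

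Among the other lower families, c_sp9_rnd-4_family-678 was at 138 ± 9.73 CPM in JU1421 and 57.6 ± 25.2 in ZZY10330 (edgeR adjusted p = 0.0109), and was lost without JU1421 replicate 3 (0.0571) or ZZY10330 replicate 2 (0.156), and with gene count totals alone (0.0524). c_sp9_rnd-5_family-8425 was at 11.1 ± 4.21 CPM in JU1421 against 6 counts in ZZY10330, all in replicate 1, so that none is left without it, and was lost without JU1421 replicate 1 (0.0548), ZZY10330 replicate 2 (0.0571) or ZZY10330 replicate 3 (0.0512). c_sp9_rnd-4_family-345, at 141 ± 27.1 against 60.8 ± 21.5 CPM, was lost without JU1421 replicate 1 (0.0636) or 3 (0.209) or ZZY10330 replicate 2 (0.199), and with gene count totals alone (0.0816). c_sp9_rnd-5_family-1487, at 26.3 ± 12.8 CPM in ZZY10330, was lost without JU1421 replicate 1 (0.0869) or 3 (0.262) or ZZY10330 replicate 2 (0.253), and with gene count totals alone (0.0994). The direction of these 4 differences was the same with each library left out. The remaining lower family, c_sp9_rnd-5_family-1245, lies outside the rule for named families and was named after its values were seen. It stood at 9.96, 17.3 and 88.4 CPM in JU1421 and 6.33, 4.81 and 14 in ZZY10330, which overlap, and its edgeR adjusted p of 0.0164 became 0.766 without JU1421 replicate 3, 0.0838 without ZZY10330 replicate 1 and 0.0826 without ZZY10330 replicate 2. The call was also lost in DESeq2 (adjusted p = 0.0535).

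Of the 4 higher families, c_sp9_rnd-5_family-81 was the clearest beside c_sp9_rnd-5_family-2147. It stood at 109.6, 80.1 and 68.8 CPM in JU1421, 159, 166 and 144 in ZZY10307, 289.6, 362 and 383 in ZZY10330 and 4.82, 1.75 and 1.97 in AF16. None of the 4 strains overlapped another. The family was 4.01-fold higher in ZZY10330 than in JU1421 (log2 2.00 ± 0.34 SE, edgeR adjusted p = 2.36e-07), and log2 0.86 ± 0.33 SE from JU1421 in ZZY10307, which did not pass (edgeR adjusted p = 0.179). The level in ZZY10330 was therefore above that of both parents. c_sp9_rnd-5_family-1640 was at 3.83 ± 1.08 CPM in JU1421 and 26.1 ± 6.51 in ZZY10330 (edgeR adjusted p = 0.0225), and was lost without JU1421 replicate 1 (0.0869) or 3 (0.179) or ZZY10330 replicate 2 (0.0794). c_sp9_rnd-5_family-5384 was at 84.9 ± 35.2 CPM in JU1421 and 213 ± 29.9 in ZZY10330 (edgeR adjusted p = 0.0225), and was lost without JU1421 replicate 2 (0.278) or 3 (0.262) or ZZY10330 replicate 2 (0.184), and with a minimum of 50 counts (0.122).

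**Figure D3:**
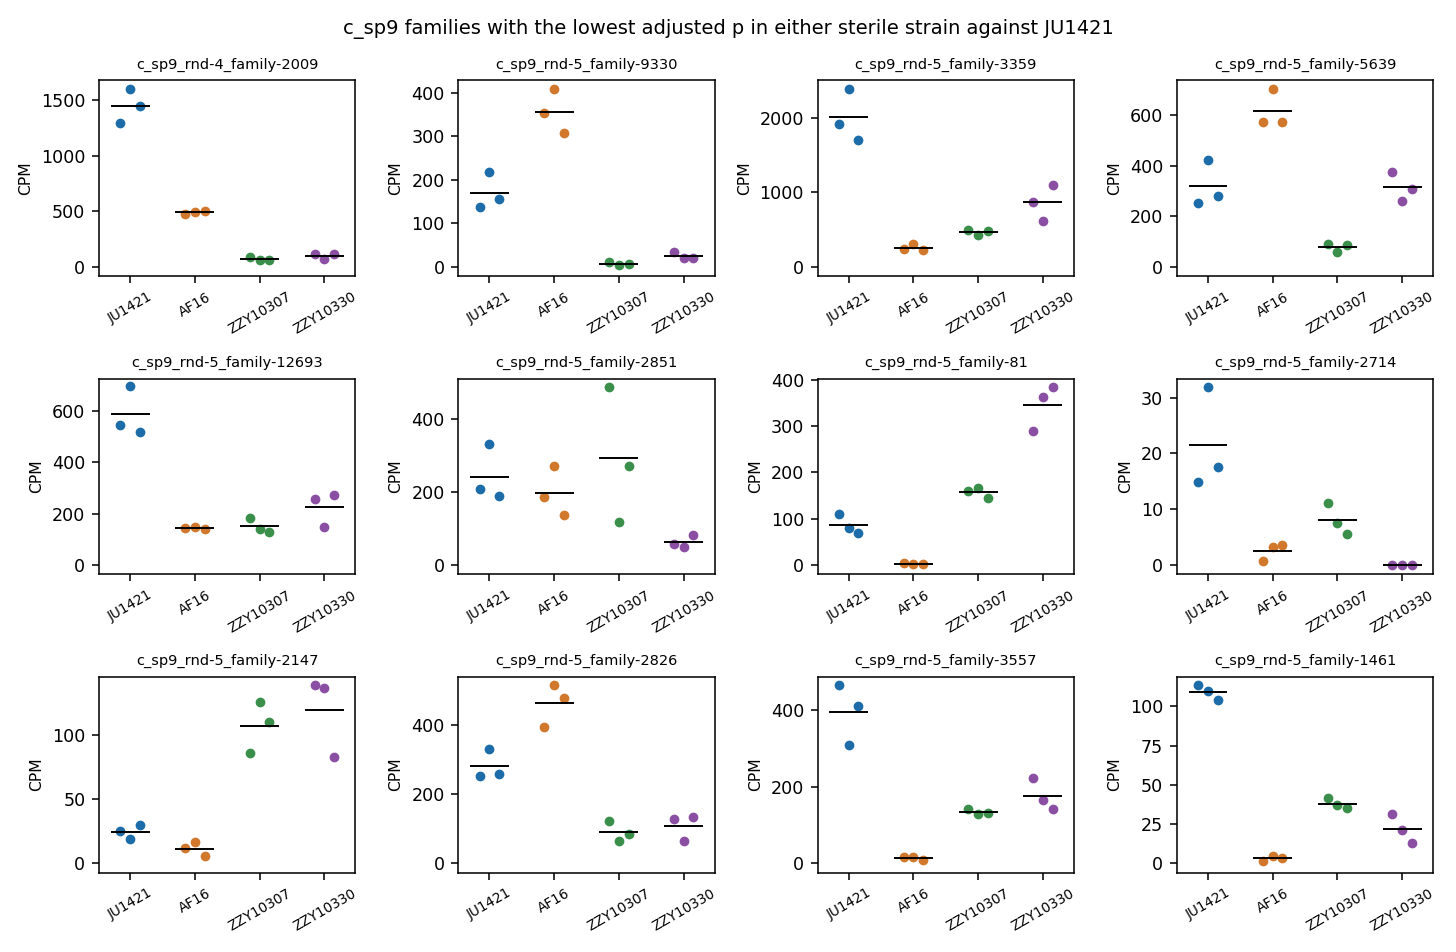
Levels in CPM (linear axis) of the 12 c_sp9 families with the lowest adjusted p in either sterile strain against JU1421, 1 panel a family, with a dot for each library and a bar for the strain mean. c_sp9_rnd-4_family-2009 and c_sp9_rnd-5_family-9330 are low in both sterile strains, c_sp9_rnd-5_family-5639 in ZZY10307 and c_sp9_rnd-5_family-2851 in ZZY10330, while c_sp9_rnd-5_family-2147 is high in both.

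The direct comparison of the sterile strains asks which families differ between these 2 strains. In ZZY10330, 4 c_sp9 families were higher and 6 lower than in ZZY10307, together 2.38% of the 420 tested, beside 1.29% higher, 1.29% lower and 2.59% in either direction among all families. The median log2 difference was 0 over the c_sp9 families, with quartiles at -1.08 and 0.76, and 0 over all families. With gene count totals alone, 2 families were higher and 10 lower. Some of the 10 calls were lost whichever library was left out. Without ZZY10307 replicate 1, 2 or 3 the test called 5, 5 and 4 of the 10. Without ZZY10330 replicate 1, 2 or 3 it called 8, 7 and 5 of them.

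The differences in c_sp9_rnd-5_family-5639, c_sp9_rnd-5_family-9330, c_sp9_rnd-5_family-2851 and c_sp9_rnd-5_family-2714, given above, held in all 12 alternative settings. The other 2 higher families were c_sp9_rnd-5_family-3359 (1.86-fold, edgeR adjusted p = 0.0300) and c_sp9_rnd-5_family-81 (2.20-fold, edgeR adjusted p = 0.0243). The first was lost without any single library other than ZZY10330 replicate 2 (0.0878 to 0.262), and the second without any other than ZZY10330 replicate 1 (0.0776 to 0.271). Both were also lost with gene count totals alone (0.101 and 0.0611), and the first with a minimum of 50 counts (0.0542). The log2 differences stayed between 0.68 and 1.09 for the first and between 1.05 and 1.24 for the second whichever library was left out.

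Of the other lower families, c_sp9_rnd-5_family-3464 stood at 31.4, 39.5 and 44.2 CPM in ZZY10307 and 9.08, 6.25 and 1.31 in ZZY10330, 6.91-fold lower (edgeR adjusted p = 0.00601), and was lost without ZZY10307 replicate 3 (0.0826) or ZZY10330 replicate 3 (0.0789). JU1421, at 19.5, 9.91 and 18.8 CPM, lay between the sterile strains without overlap. c_sp9_rnd-4_family-345 was at 157 ± 17.0 CPM in ZZY10307 and 60.8 ± 21.5 in ZZY10330 (edgeR adjusted p = 0.0117), and was lost without any single ZZY10307 library or ZZY10330 replicate 2 (0.0522 to 0.166). c_sp9_rnd-5_family-1049 was at 161 ± 13.0 CPM against 65.6 ± 29.8 (edgeR adjusted p = 0.0193), and was lost without any single ZZY10307 library or ZZY10330 replicate 3 (0.0608 to 0.245), and in DESeq2 (0.0653). c_sp9_rnd-5_family-2037, at 43 counts against 0, passed with edgeR adjusted p = 0.0355 and was lost without any single library of either strain (0.0537 to 0.118).

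**Figure D4:**
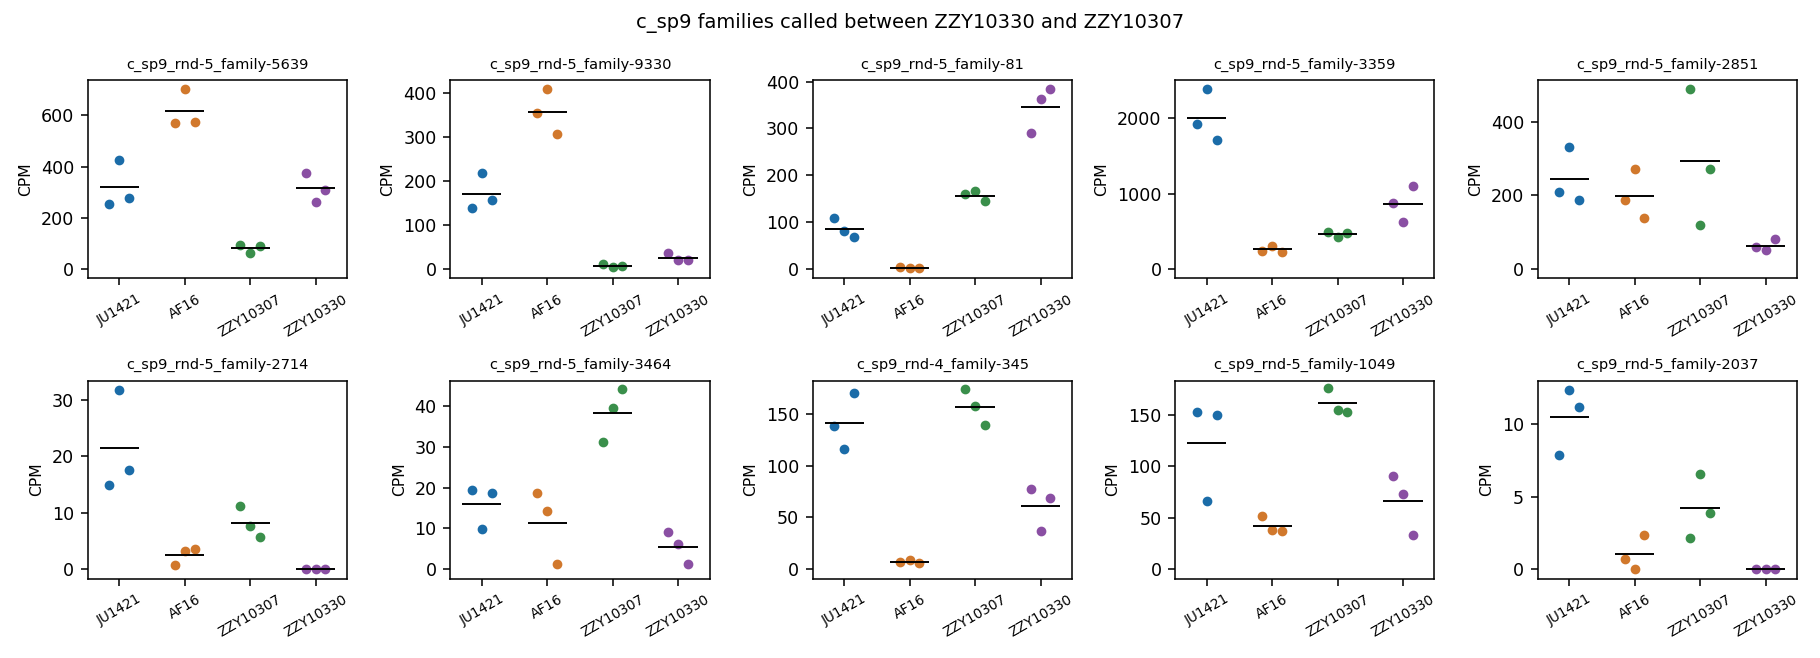
Levels in CPM (linear axis) of the 10 c_sp9 families called between ZZY10330 and ZZY10307, 1 panel a family, with a dot for each library and a bar for the strain mean. c_sp9_rnd-5_family-5639 and c_sp9_rnd-5_family-9330 are higher in ZZY10330, and c_sp9_rnd-5_family-2851 and c_sp9_rnd-5_family-2714 are lower.

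Some abundant families did not pass the test in any comparison. c_sp9_rnd-5_family-1567 stood at 1056 ± 293 CPM in JU1421 and 1379 ± 288 in AF16, 1232 ± 299 in ZZY10307 and 1547 ± 491 in ZZY10330. c_sp9_rnd-5_family-6272 was at 647 ± 98.0, 494 ± 70.1, 402 ± 60.7 and 523 ± 132 CPM in the same order. c_sp9_rnd-5_family-7550 was at 246 ± 47.6, 271 ± 38.8, 245 ± 47.7 and 282 ± 57.8 CPM. These 3 and c_sp9_rnd-4_family-199 passed the test in none of the 4 comparisons, with edgeR adjusted p of 0.209 or more, which does not show that they are equal: c_sp9_rnd-5_family-6272 was 1.61-fold lower in ZZY10307 than in JU1421, without overlap, and c_sp9_rnd-4_family-199 was 1.81-fold lower in ZZY10330. For c_sp9_rnd-5_family-7550 the difference from JU1421 was log2 -0.00 ± 0.29 SE in ZZY10307 and 0.20 ± 0.29 SE in ZZY10330.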

How the data were processed

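RNA of whole young adult males was made into stranded TruSeq mRNA libraries, and a MiSeq gave 150-nt paired reads, per the labels' protocols. The authors deposited raw counts per repeat family and per gene for each of 12 male libraries. Trimmomatic and edgeR are the tools in the submitters' processing notes, with no version. Aligner, counter, genome build and repeat annotation: not given in the sources used here. Nothing is said of the treatment of reads shared between families or with genes, so families of similar sequence may share reads. Female libraries were not used here.

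Families were fitted in edgeR 4.0.16 (R 4.3.3) on all 696 families that reached 10 counts over the 12 libraries. Library sizes were gene count totals times TMM factors of 13289 genes kept by filterByExpr. Each strain had 1 coefficient, with robust quasi-likelihood fits and Benjamini-Hochberg adjustment. Exact permutation tests, two-sided, compared sums and shares. No replicate was a duplicate of another, since chi-square over its degrees of freedom was 7.56 to 26.5 between replicates. Alternatives were gene count totals alone, other count minimums, families and genes in 1 table, a replicate block, DESeq2 1.42.0 and leaving out each library. The code was tested on simulated data.

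The families and lists were chosen with earlier results of these data known. Families named are, per comparison, those with the lowest adjusted p, up to 12 in each direction, the 12 of highest mean level, and up to 5 seen in 1 parent only; those lower in AF16 are described in part. A planned check against cell type markers was not run, because no gene names come with the identifiers. Figures were drawn with matplotlib 3.10.9.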

Additional observations from a re-analysis of the deposited data

How the results depend on the processing

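Over 12 alternative settings per comparison, 936 values of named, called families were recomputed. Of these, 809 stayed past the threshold, 127 did not, and none changed direction. The calls held in all 12 settings for 9 of 16 named families in ZZY10307 against JU1421, 11 of 18 in ZZY10330 against JU1421, 26 of 34 in AF16 against JU1421 and 4 of 10 between the sterile strains.

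With gene count totals alone, 10 families were higher in ZZY10307 than in JU1421, and 2 were higher and 10 lower in ZZY10330 than in ZZY10307. Fitted in 1 table with the genes, 27 families were called in ZZY10307 (12 higher) and 33 in ZZY10330 (10 higher, 23 lower) against JU1421, and 11 were lower in ZZY10330 than in ZZY10307. DESeq2 called 7 families higher in ZZY10307. The cause of these shifts was not tested. Without the most abundant member the difference in the sum between ZZY10330 and ZZY10307 was 514 CPM, and without the most abundant family of the table the difference in share between ZZY10330 and JU1421 was -9.12 percentage points.

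When each library was left out in turn, the families called numbered 11 to 14 in ZZY10307 (3 to 4 higher, 8 to 10 lower), 13 to 22 in ZZY10330 (2 to 5 higher, 11 to 18 lower) and 71 to 94 in AF16 (3 to 8 higher, 65 to 87 lower) against JU1421, and 4 to 10 between the sterile strains (2 to 3 higher, 2 to 7 lower). The difference in the summed level ranged from -5450 to -3729 CPM in ZZY10307, -5695 to -4052 in ZZY10330 and -8172 to -6408 in AF16, and from -1214 to 650 between the sterile strains, where it changed sign. The difference in share ranged from 19.4 to 20.3, 3.92 to 6.29, -0.910 to 0.0307 and -16.0 to -13.6 percentage points in the same order.

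Replicate numbers gave no sign of pairing: same-numbered libraries of the strains compared had deviations correlated at -0.177 to 0.1 over 187 families. Differently numbered libraries reached 0.320. Deviations from means of 3 libraries cannot settle whether libraries were handled in pairs. With the replicate number as a block, 14 families were called in ZZY10307, 14 in ZZY10330 (2 higher) and 86 in AF16 against JU1421, and 7 between the sterile strains (2 higher), all among those called without it. Calls lost under this block are given here as counts only, not family by family.

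Depth limits the list: 233 of the 420 tested families had fewer than 100 counts in 12 libraries, and 85 more had too few to test. Reads of near-identical families, or of C. briggsae copies counted under C. nigoni families, cannot be told apart in these counts.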

Other observations

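Some c_sp9 families with at least 10 AF16 counts and none in JU1421 had counts in the sterile strains. c_sp9_rnd-5_family-3346 had 32 counts in AF16, 20 in ZZY10307 and 22 in ZZY10330, and c_sp9_rnd-5_family-4562 had 27, 15 and 21. c_sp9_rnd-5_family-1957 had 19 counts in AF16, 31 in ZZY10307 and 4 in ZZY10330. c_sp9_rnd-5_family-3926 had 13, 25 and 3, and c_sp9_rnd-5_family-760 had 17, 27 and 0. c_sp9_rnd-4_family-1091 had the opposite balance, with 13 counts in AF16, 4 in ZZY10307 and 26 in ZZY10330. Others were counted in AF16 alone, such as c_sp9_rnd-5_family-9460 with 50 counts and c_sp9_rnd-5_family-2360 with 34. These families were named after their counts were seen, apart from those the naming rule reached, and whether any of them lies in an introgressed interval is not known from the files.

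Of the c_sp9 families with at least 10 JU1421 counts, 7 had no count in ZZY10307 and 10 had none in ZZY10330. c_sp9_rnd-5_family-12483 had 10 counts in JU1421, none in AF16 or ZZY10307 and 43 in ZZY10330. c_sp9_rnd-5_family-10287 had 15 counts in JU1421, 28 in AF16, none in ZZY10307 and 36 in ZZY10330. Apart from c_sp9_rnd-5_family-2714 and c_sp9_rnd-5_family-2037, each such family had at most 19 counts in JU1421.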
